A study of Drosophila melanogaster with 42 samples.

Results

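Respiratory complex I, the NADH:ubiquinone oxidoreductase of the inner mitochondrial membrane, has a matrix arm that takes electrons from NADH and a membrane arm that pumps protons. The transcripts described here encode 10 nuclear subunits of the membrane arm of Drosophila melanogaster. They are ND-B16.6 (CG3446), ND-42 (CG6343), ND-B14.7 (CG9350), ND-B14.5B (CG12400), ND-15 (CG11455), ND-PDSW (CG8844), ND-B17 (CG13240), ND-ASHI (CG3192), ND-B18 (CG5548) and ND-B22 (CG9306). Each was found as a spot whose annotation pairs it with that gene alone, and these are 10 of the 9905 single genes that the arrays measured. Every subunit had 1 such spot, so a value rests on 1 probe sequence per gene.

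The arrays carried RNA from the head and thorax of adult males at 8 ages, which were 5, 10 and 20 days, 30, 40 and 50 days, and the late ages of 70 and 80 days. Indy206 flies were heterozygous over Canton-S (Indy206/CS). They carry an altered allele of Indy, the gene I'm Not Dead Yet for a plasma membrane citrate transporter, whose reduction is known to lengthen fly life. The controls were genetically matched heterozygotes of a control line over the same Canton-S chromosome (2216/CS), so both groups share a Canton-S chromosome set. Each sample was a pool of 15 males, and the RNA went through a single round of linear T7 amplification. The sample was labelled with Cy5 and set on each array against a Cy3 pool of control RNA from all ages. There were 42 arrays, 21 per genotype, and each of the 16 groups of genotype and age held 2 or 3 arrays. Each value is the log2 of the sample's signal over that of the reference, so a value of 0 is the level of the pool, and levels are not compared between genes. The direction of the ratio and its log base were read as Cy5 over Cy3 and as 2, which is likely but not stated, and every sign rests on it. In bulk tissue, fewer cells of a type and less RNA per cell cannot be told apart.

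None of the 10 subunits carries the redox cofactors of the enzyme. In mammals their counterparts are accessory (supernumerary) subunits that surround the core proton-pumping subunits, which mitochondrial DNA encodes, and that are needed to build or hold the membrane arm. The mammalian counterpart of ND-B16.6 is NDUFA13, also known as GRIM-19, next to the joint between the arms. Those of ND-42 (NDUFA10), ND-B14.7 (NDUFA11), ND-B14.5B (NDUFC2) and ND-15 (NDUFS5) belong to the proximal part of the membrane arm. Those of ND-PDSW (NDUFB10), ND-B17 (NDUFB6), ND-ASHI (NDUFB8), ND-B18 (NDUFB7) and ND-B22 (NDUFB9) belong to its distal part. Flight muscle of the thorax is rich in mitochondria, and complex I supplies much of the proton gradient that ATP synthase uses there.

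The Indy transcript stood at -1.16 ± 0.265 (SD, n = 21) on the Indy206 arrays and at -0.260 ± 0.140 (SD, n = 21) on the control arrays, with no overlap between them (highest Indy206 array -0.672, lowest control array -0.491). Correlations between arrays ran from 0.514 to 0.959. A set of 4 arrays stood apart from the rest, both Indy206 arrays of day 5, the control array of day 5 replicate 3 and the control array of day 20 replicate 2. Muscle markers had a positive array median on 40 arrays and photoreceptor markers on 42. Testis markers ranged from -2.95 to -0.394 and accessory gland markers from -3.95 to -1.34, below the reference pool on every array. A ratio to a pool does not say whether a transcript was absent.

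The first question was how the membrane arm transcripts changed with age. Of the 10 subunits, 9 fell with age over both genotypes, and the 10th, ND-B22, did not pass the test. The slope, taken as the mean of the slopes in control and Indy206 flies, was steepest for ND-ASHI, at -0.15 ± 0.014 (SE) per 10 days on the log2 scale. It was shallowest among the fallen for ND-B18, at -0.07 ± 0.013 (SE). By this slope 15.1% of all 19077 units tested were called lower (limma, Benjamini-Hochberg adjusted p under 0.05), so a falling transcript was common in these flies. The share was 24.6% with single-gene spots tested alone. The median slope was -0.11 over the 10 subunits and -0.0031 over all units. From day 5 to day 80, as the mean of the genotypes, the level of the 9 fallen subunits was left at 0.391 (ND-ASHI) to 0.619 (ND-B18) of its starting value.

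**Figure D1:**
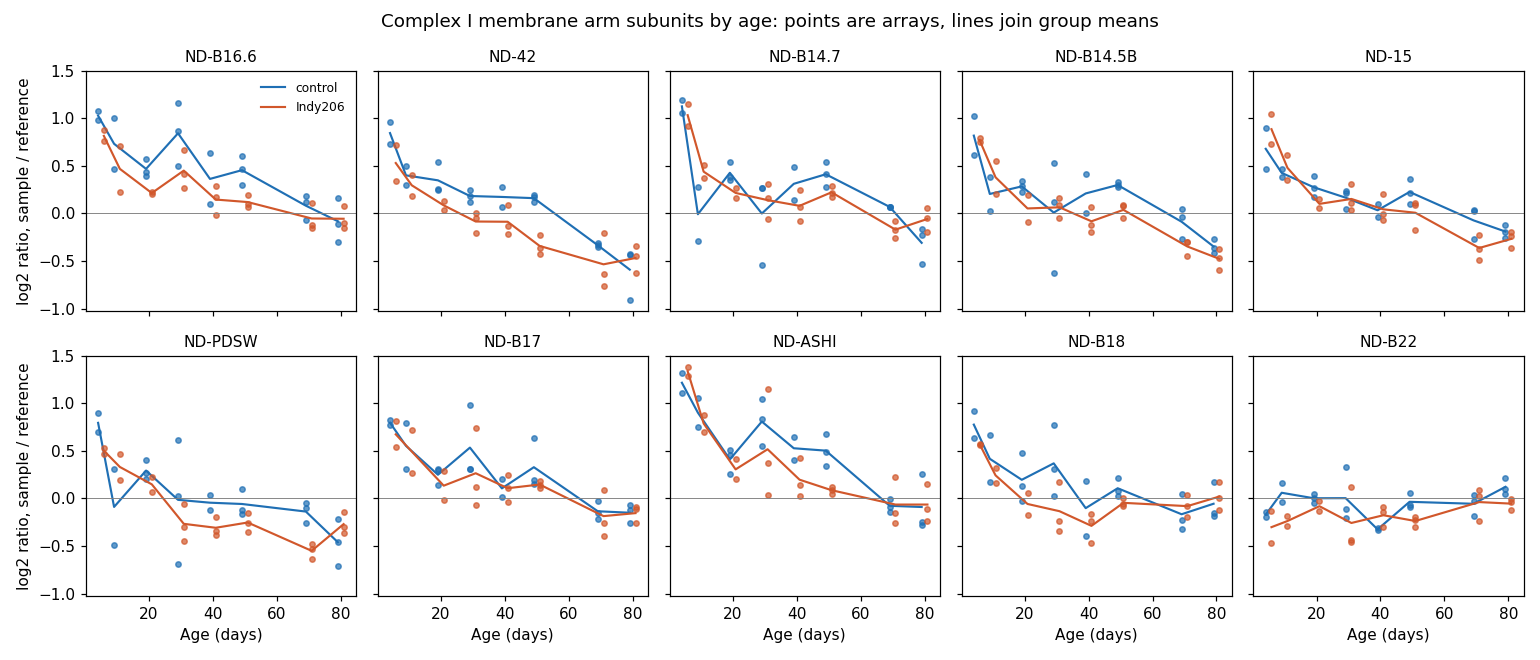
Log2 ratio of sample over reference for each of the 10 subunits against age in days. Points are single arrays (control blue, Indy206 orange, set slightly apart), lines join the group means, and all panels share axes. A decline from day 5 to day 80 is seen in every panel but that of ND-B22, and the day 5 arrays of ND-B14.7 lie at 0.92 or above, clear of all later arrays.

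ND-B16.6, the counterpart of mammalian NDUFA13, stood in control flies at 0.98 and 1.07 on the day 5 arrays and at 0.16, -0.11 and -0.30 on the day 80 arrays. In Indy206 flies it stood at 0.87 and 0.76 at day 5 and at 0.08, -0.10 and -0.15 at day 80. The youngest and oldest arrays did not overlap in either genotype. The share of all units whose day 5 and day 80 arrays separate was not computed, for this subunit or for those below. The slope was -0.11 ± 0.012 (SE) per 10 days (limma adjusted p = 3.9e-08), and day 80 held 0.503 of the day 5 level. Between these ages the control values spread widely, from 0.50 to 1.16 on the 3 arrays of day 30 and from 0.46 to 1.00 on those of day 10.

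Of the 4 proximal subunits, ND-42 fell the most steeply. Its counterpart NDUFA10 is built like a nucleoside kinase, although it serves complex I. In controls ND-42 stood at 0.73 and 0.96 at day 5, at 0.20, 0.12 and 0.17 at day 50 and at -0.91, -0.44 and -0.42 at day 80. In Indy206 flies it stood at 0.72 and 0.34 at day 5, at -0.37, -0.43 and -0.23 at day 50 and at -0.44, -0.34 and -0.62 at day 80. Every day 80 array lay below every day 5 array. The slope was -0.14 ± 0.010 (SE) per 10 days (limma adjusted p = 6.5e-12), and day 80 held 0.430 of the day 5 level.

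ND-B14.7 is the counterpart of NDUFA11. Its control arrays stood at 1.19 and 1.06 at day 5, at 0.27 and -0.29 at day 10, and at -0.53, -0.23 and -0.17 at day 80. Its Indy206 arrays stood at 1.15 and 0.92 at day 5, at 0.51 and 0.37 at day 10, and at -0.04, 0.06 and -0.19 at day 80. The slope over all ages was -0.10 ± 0.012 (SE) per 10 days (limma adjusted p = 1.2e-07), with 0.417 of the day 5 level left at day 80.

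ND-B14.5B, the counterpart of NDUFC2, stood in controls at 1.02 and 0.62 at day 5 and at -0.36, -0.26 and -0.42 at day 80. The Indy206 arrays stood at 0.80 and 0.75 at day 5 and at -0.47, -0.59 and -0.37 at day 80. Its slope was -0.12 ± 0.013 (SE) per 10 days (limma adjusted p = 6.1e-08), which left 0.433. ND-15, whose counterpart NDUFS5 lies on the intermembrane side in mammals, ran from 0.46 to 1.04 over the 4 arrays of day 5 and from -0.37 to -0.12 over the 6 arrays of day 80. Its slope was -0.11 ± 0.0088 (SE) per 10 days (limma adjusted p = 5.8e-11). The annotation pairs a further 2 spots with ND-15 and a second gene, CG3436, together. Those spots had slopes of 0.012 and 0.0069 with every spot tested alone (limma adjusted p = 0.46 and 0.63), and they correlated with the ND-15 spot at -0.23 and -0.014 over the 42 arrays. Which gene those spots measure was not tested, and they do not enter the values of ND-15.

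Of the 5 distal subunits, 4 fell. ND-ASHI, the counterpart of NDUFB8, stood at 1.11 and 1.32 on the control arrays of day 5 and at 1.39 and 1.29 on the Indy206 arrays. At day 80 it stood at 0.26, -0.28 and -0.25 in controls and at 0.15, -0.11 and -0.24 in Indy206 flies. Every day 80 array lay below every day 5 array, and the slope was -0.15 ± 0.014 (SE) per 10 days (limma adjusted p = 2.3e-09).

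ND-PDSW, the counterpart of NDUFB10, a subunit with disulphide bonds on the intermembrane side in mammals, ran from 0.47 to 0.90 at day 5 and from -0.71 to -0.14 at day 80, with a slope of -0.11 ± 0.015 (SE). ND-B17, the counterpart of NDUFB6, ran from 0.54 to 0.82 at day 5 and from -0.26 to -0.07 at day 80, with a slope of -0.10 ± 0.014 (SE). Both passed the test, with limma adjusted p = 2e-06 for ND-PDSW and limma adjusted p = 1.1e-06 for ND-B17. ND-B18, the counterpart of NDUFB7, ran from 0.57 to 0.92 at day 5 and from -0.19 to 0.17 at day 80 (slope -0.07, limma adjusted p = 8e-05). Its fall did not pass without day 5 (limma adjusted p = 0.052).

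ND-B22, the counterpart of NDUFB9, a member of the LYR-motif family that binds the mitochondrial acyl carrier protein, followed another course. It stood at -0.15 and -0.20 on the control arrays of day 5 and at 0.22, 0.05 and 0.10 on those of day 80. In Indy206 flies it stood at -0.47 and -0.13 at day 5 and at -0.01, -0.12 and -0.03 at day 80. All 6 arrays of day 80 lay above all 4 arrays of day 5, by a narrow margin in Indy206 flies (-0.124 against -0.133). How many of all units separate in this way was not computed. The slope was 0.019 ± 0.0096 (SE) per 10 days, with a 95% interval from -0.00058 to 0.039 (limma adjusted p = 0.16). It crossed the threshold upward under 3 alternatives, quantile normalization (0.025, limma adjusted p = 0.046), array weights (0.021, limma adjusted p = 0.039) and a covariate of testis and accessory gland markers (0.035, limma adjusted p = 0.044). The interval of ND-B22 lies wholly above those of the other 9 subunits, the nearest of which, that of ND-B18, ends at -0.047.

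Taken by genotype, 9 subunits fell in controls, where 4.01% of all units were called lower, and 8 fell in Indy206 flies, where 12% of all units were called lower and 7.44% higher (9.78% and 9.93% with quantile normalization). With single-gene spots tested alone 6.60% were called lower in controls and 21.0% in Indy206 flies. The share called lower in Indy206 flies was 6.98%, 7.22% and 7.14% without Indy206 day 5 replicate 1, day 10 replicate 2 and day 80 replicate 3 in turn. It was 4.67% without the arrays that stood apart, a setting that leaves out day 5 altogether, so that its slopes start at day 10. It was 3.15% with a covariate of testis and accessory gland medians, with which 7 subunits fell and ND-B17 did not pass (-0.07, limma adjusted p = 0.054). In controls the count was 6 under either of 2 alternatives. With the muscle marker median of each array as a covariate, 1.08% of all units were called lower, and ND-PDSW (-0.03, limma adjusted p = 0.75), ND-B14.5B (-0.07, limma adjusted p = 0.23) and ND-B14.7 (-0.08, limma adjusted p = 0.091) did not pass. Without the arrays that stood apart, and so without day 5, the share was 2.74%. There ND-PDSW (-0.06, limma adjusted p = 0.18), ND-B14.7 (-0.04, limma adjusted p = 0.35) and ND-B18 (-0.06, limma adjusted p = 0.076) did not pass.

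The subunit behind the counts of 9 and 8 was ND-B18, at -0.10 ± 0.018 (SE) per 10 days in controls and at -0.05 ± 0.019 (SE) in Indy206 flies (limma adjusted p = 0.00051 and 0.055). The difference in slope itself, 0.046 with a 95% interval from -0.0074 to 0.10, did not pass the test (limma adjusted p = 0.83). For none of the 10 subunits was a difference in slope called by limma, and 1, ND-15, stood at an unadjusted p under 0.05 (-0.039 ± 0.018 SE), as did 5.58% of all units. Over all units 0% were called for this difference.

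**Figure D2:**
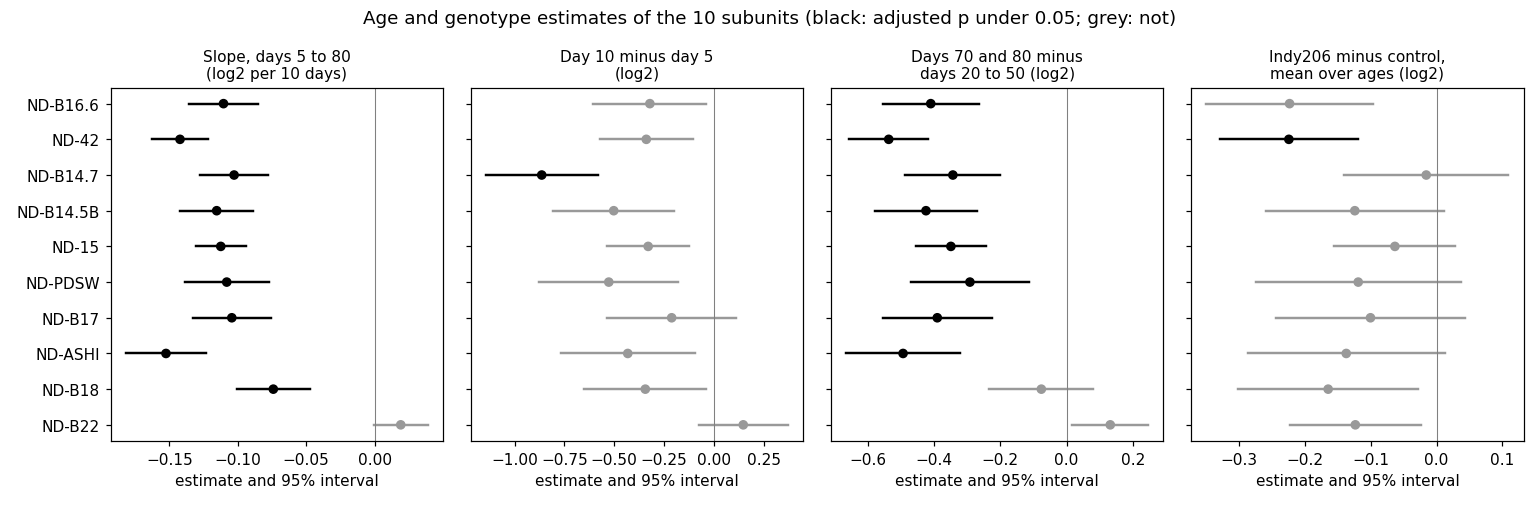
Estimates with 95% intervals for each subunit in 4 contrasts, from left to right the age slope, day 10 minus day 5, days 70 and 80 minus days 20 to 50, and Indy206 minus control averaged over ages. All are on the log2 scale, and black marks an adjusted p under 0.05. The slope is called for 9 subunits, the early step for ND-B14.7 alone, the late step for 8 and the genotype difference for ND-42 alone.

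The decline was then split by period. Between day 5 and day 10, ND-B14.7 was the 1 subunit that fell by the test, by 0.86 ± 0.137 (SE) on the log2 scale, which left 0.549 of the day 5 level (limma adjusted p = 0.0003). Its 4 arrays of day 5 lay at 0.916 or above, and the highest of the other 38 arrays reached 0.543. ND-B14.5B also had its 4 arrays of day 5 above every other array (lowest 0.615, highest other 0.554), but its step of -0.50 ± 0.148 (SE) did not pass (limma adjusted p = 0.052). For ND-PDSW (-0.53, limma adjusted p = 0.076) and ND-ASHI (-0.43, limma adjusted p = 0.13) the day 5 arrays lay above every day 10 array. The day 5 arrays lay above every day 10 array for 8.93% of all units and above every other array for 0.43%. The step was below 0 for 9 of the 10 subunits, with a median of -0.34 against -0.014 over all units, of which 2.84% were called lower. That share ran from 0.608% without Indy206 day 10 replicate 1 to 4.39% without Indy206 day 10 replicate 2. It lay between 0.923% and 1.18% without any of 5 others, both Indy206 and both control arrays of day 5 and control day 10 replicate 1. It was 0.671% with the muscle covariate, 0.136% with that of testis and accessory gland markers and 6.64% with single-gene spots tested alone. ND-B22 stood at 0.15 ± 0.109 (SE).

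The early step of ND-B14.7 was called in controls (-1.13 ± 0.194 SE, limma adjusted p = 0.0038), where 0.372% of all units were called lower (0.0734% and 0.147% without day 5 replicates 1 and 3, 0.571% without day 10 replicate 2). In controls it did not pass without day 10 replicate 2 (-0.85, limma adjusted p = 0.056) or without day 5 replicate 1 (-1.07, limma adjusted p = 0.073). In Indy206 flies it was -0.59 ± 0.194 (SE) and did not pass (limma adjusted p = 0.23). No subunit passed there by limma, 3 stood at an unadjusted p under 0.05, as did 11% of all units, and 0.152% of all units were called lower (0.236% without Indy206 day 10 replicate 2). The difference between these steps, 0.54 with a 95% interval from -0.020 to 1.10, did not pass either (limma adjusted p = 1.0). For ND-PDSW the corresponding difference was 0.71 ± 0.341 (SE), the 1 subunit at an unadjusted p under 0.05, which 3.27% of all units reached. Leaving out replicate 1 of the control arrays of day 10 gave 0.31, and leaving out their replicate 2 gave 1.12. By limma no subunit was called for this difference and 0% of all units were.

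Quantile normalization changed the balance of early calls over all units, from 2.84% lower and 0.833% higher to 2.84% and 2.82%. In controls it went from 0.372% and 0.131% to 0.472% and 0.503%, and in Indy206 flies from 0.152% and 0.0629% to 1.09% and 1.5%. The count of early falls among the subunits moved as well. It was 5 with quantile normalization (2.84% of all units called lower) or with arrays scaled to a common spread (2.71%). It was 4 with array weights (5.86%) and 0 with the muscle marker median of each array as a covariate (0.671%). With that covariate the step of ND-B14.7 was -0.77 (limma adjusted p = 0.061) and that of ND-PDSW was 0.066 (limma adjusted p = 0.93). Muscle markers themselves were at their highest at day 5, with array medians from 0.66 to 1.08 in controls and from 0.79 to 0.86 in Indy206 flies. At day 10 they ranged from 0.09 to 0.63 and from 0.09 to 0.40. All 18 measured muscle markers had an early step below 0, and 6 of them passed the test. Testis markers fell over the same step as well, 12 of 12 below 0 and 5 called. With the covariate of testis and accessory gland markers the step of ND-B14.7 was -0.93 (limma adjusted p = 0.013). Of the 4 arrays of day 5, 3 were among the arrays that stood apart.

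From day 10 onward the slope over days 10 to 80 was called lower for 9 subunits, against 7.93% of all units (12.9% with single-gene spots tested alone). It ran from -0.12 ± 0.011 (SE) per 10 days for ND-42 to -0.04 ± 0.015 (SE) for ND-B18, with ND-B22 at 0.013. ND-B18 passed narrowly (limma adjusted p = 0.044) and lost the call when any of 15 of the 42 arrays was left out. As given above, its slope over these ages also did not pass when the fit left out the day 5 arrays. The other 8 fell with limma adjusted p from 1.6e-09 to 0.004. Between day 10 and the mean of days 20 to 50 the change ran from -0.43 for ND-ASHI to 0.01 for ND-B14.7, with a median of -0.25. ND-B14.7 stood at 0.22 at day 10 and at 0.23 over days 20 to 50, as means of the genotypes.

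The last period compared days 70 and 80 with days 20 to 50. It gave 8 subunits that fell, against 7.21% of all units called lower (13.2% with single-gene spots tested alone). The median was -0.37 against -0.011 over all units. ND-42 had the largest of these steps, -0.54 ± 0.058 (SE), which left 0.689 of the middle-age level (limma adjusted p = 7.5e-08). Its 22 arrays of days 20 to 50 ran from -0.43 over a median of 0.10 to 0.54, and its 12 arrays of days 70 and 80 from -0.91 over -0.43 to -0.21, so the tails overlapped. ND-ASHI stood at -0.49, ND-B14.5B at -0.42, ND-B16.6 at -0.41 and ND-B17 at -0.39. ND-15 (-0.35), ND-B14.7 (-0.34) and ND-PDSW (-0.29) followed, with limma adjusted p from 1.1e-05 to 0.022 over these 3.

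ND-B18 and ND-B22 were the exceptions in late life. ND-B18 stood at -0.08 ± 0.077 (SE) (limma adjusted p = 0.58), with middle-age arrays from -0.47 to 0.77 and old arrays from -0.32 to 0.17. ND-B22 stood at 0.13 ± 0.056 (SE) (limma adjusted p = 0.12), with middle-age arrays from -0.46 to 0.33 and old arrays from -0.23 to 0.22. The late step of ND-B18 was 0.35 ± 0.153 (SE) higher in Indy206 flies than in controls. That difference did not pass (limma adjusted p = 1.0), 2 subunits and 3.84% of all units stood at an unadjusted p under 0.05 in it, limma called none, and 0% of all units were called.

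The other genes of complex I were taken by list. All 8 measured genes of the matrix arm were called lower by the age slope, with a median of -0.12 per 10 days and ND-39 the steepest at -0.16 ± 0.011 (SE). ND-75 and ND-51, which encode the large iron-sulphur subunit and the subunit that binds NADH, had slopes of -0.12 and -0.15. Of the list of other nuclear subunits of the membrane arm 3 were measured, and all 3 fell, ND-ACP, the acyl carrier protein, by 0.12 per 10 days, ND-B12 by 0.12 and ND-MNLL by 0.06. The 3 measured assembly factors CIA30, sicily and ECSIT, which help build the complex and are not part of it, had slopes of -0.021, -0.021 and 0.016, and none passed (limma adjusted p from 0.17 to 0.28). None of the 7 subunits that mitochondrial DNA encodes had a single-gene spot.

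Beyond complex I, all 16 measured genes of complexes II to IV and all 13 of ATP synthase were called lower by the age slope, with medians of -0.16 and -0.18. In the late step the medians were -0.49 in the matrix arm, -0.61 in complexes II to IV and -0.54 in ATP synthase, against -0.37 in the 10 membrane arm subunits. Whether the membrane arm fell less than these was not tested. Genes of mitochondrial abundance (porin, import, nucleoid and fusion genes) had a median slope of -0.0093, with 3 of 8 called lower and 1 higher. Muscle markers had one of -0.053, with 10 of 18 called lower and 4 higher. By this slope 15.1% of all units were called lower and 10.1% higher. In the late step 4 muscle markers were lower and 7 were higher, where 7.21% of all units were called lower and 6.9% higher. With the muscle covariate, 8 of the 10 subunits were still called lower by the age slope, and ND-PDSW was not (-0.05, limma adjusted p = 0.11). With the covariate of testis and accessory gland markers 9 were.

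**Figure D3:**
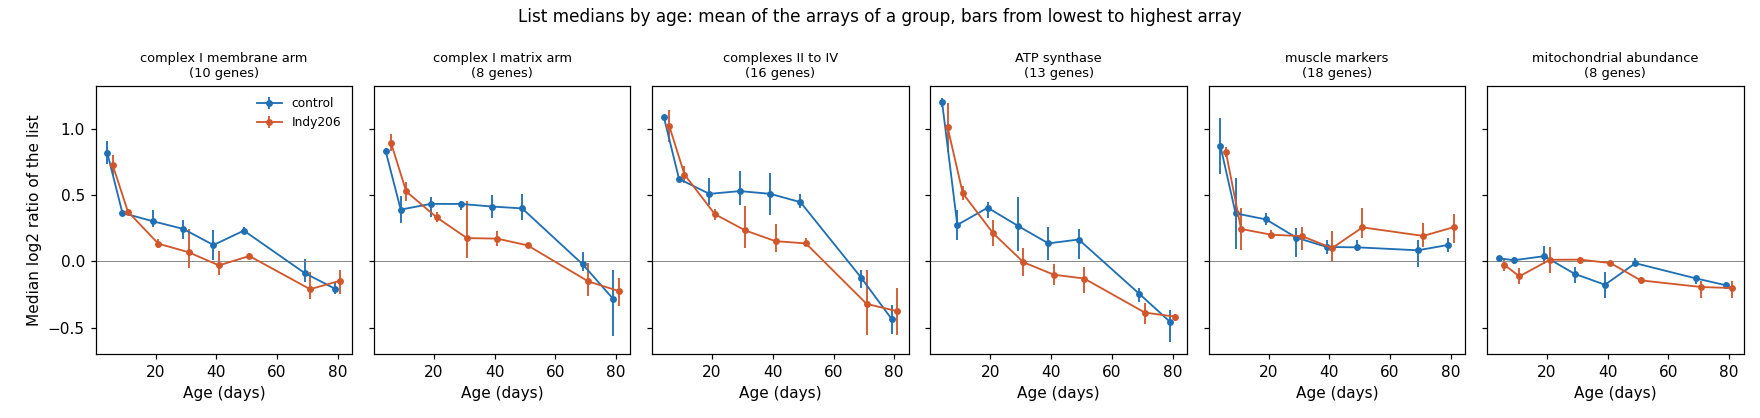
Median log2 ratio of each gene list against age in days, for the membrane arm subunits, the matrix arm, complexes II to IV, ATP synthase, muscle markers and genes of mitochondrial abundance. Points are means over the 2 or 3 arrays of a group and bars run from the lowest to the highest array. The membrane arm median falls from 0.82 in controls and 0.73 in Indy206 flies at day 5 to -0.21 and -0.14 at day 80.

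In their course over the 16 groups the subunits resembled each other, ND-B22 apart. Pearson correlations between the group means of pairs of subunits ran from -0.558 to 0.964 over 45 pairs, with a median of 0.848. Each of the 9 fallen subunits correlated with the mean of the other 9 at 0.834 (ND-B14.7) to 0.954 (ND-42), and ND-B22 at -0.352. These are descriptions over 16 group means that share 1 reference pool. Among all 9905 single genes the one most like the mean course of the 10 subunits was ND-ACP (0.983). Outside the complex I lists the nearest 5 were ATPsynE (0.974), Idh3a (0.973) and ATPsynO (0.973), COX4 (0.971) and NP15.6 (0.969). ATPsynE and ATPsynO encode ATP synthase subunits, Idh3a a subunit of NAD-dependent isocitrate dehydrogenase and COX4 a cytochrome c oxidase subunit. NP15.6 is listed in the gene table under the name of NDUFB11, itself a membrane arm subunit. It was on none of the lists, and its age slope was -0.15 ± 0.0113 (SE) per 10 days (limma adjusted p = 2.2e-11).

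The second question was whether Indy206 flies differed from controls. Averaged over the 8 ages, all 10 subunits had a lower value in Indy206 flies, with a median difference of -0.12 against -0.0024 over all units. Only ND-42 passed the test, at -0.22 ± 0.051 (SE), or 0.856 of the control level (95% interval from -0.33 to -0.12, limma adjusted p = 0.042). By this contrast 0.22% of all units were called lower, a share that was 0.136% without Indy206 day 80 replicate 3 and 0.346% without Indy206 day 20 replicate 2. With single-gene spots tested alone the share was 0.404%. ND-B16.6 had nearly the same difference, -0.22 ± 0.062 (SE), and did not pass (limma adjusted p = 0.16). ND-B18 stood at -0.16, ND-ASHI at -0.14, ND-B14.5B and ND-B22 at -0.12, ND-PDSW at -0.12, ND-B17 at -0.10, ND-15 at -0.06 and ND-B14.7 at -0.02. Their limma adjusted p ran from 0.57 to 1.0. An unadjusted p under 0.05 was reached by 4 subunits, ND-42, ND-B16.6, ND-B18 and ND-B22, and by 6.59% of all units (3.63% lower). The 95% interval of ND-B14.7 ran from -0.14 to 0.11 and that of ND-15 from -0.15 to 0.029.

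The arrays of ND-42 show where this difference lay. At day 5 the controls stood at 0.73 and 0.96 and the Indy206 flies at 0.72 and 0.34. At day 10 they stood at 0.30 and 0.50 against 0.19 and 0.40. The genotypes did not overlap at day 5, though by a narrow margin, and did at day 10. Such a separation at day 5, with Indy206 below, held for 17% of all units.

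At day 20 the controls stood at 0.25, 0.26 and 0.54 and the Indy206 flies at 0.04 and 0.13. At day 30 they stood at 0.18, 0.24 and 0.13 against -0.05, -0.21 and 0.01. At day 40 they stood at 0.07 and 0.28 against -0.13, 0.08 and -0.22. Every Indy206 array lay below every control array at days 20 and 30, as for 9.67% and 3.61% of all units. At day 40, 1 Indy206 array lay between the controls.

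At day 50 the controls stood at 0.20, 0.12 and 0.17 and the Indy206 flies at -0.37, -0.43 and -0.23. At day 70 they stood at -0.36, -0.31 and -0.34 against -0.76, -0.21 and -0.64. At day 80 they stood at -0.91, -0.44 and -0.42 against -0.44, -0.34 and -0.62. The gap was widest at day 50, where the groups were far apart, and the genotypes separated in this direction for 4.8% of all units. At days 70 and 80 the groups of ND-42 overlapped. The day 50 difference was -0.50 ± 0.132 (SE), or 0.706 of control, and did not pass over all units (limma adjusted p = 0.55). It passed with quantile normalization (-0.60, limma adjusted p = 0.032). At day 80 the difference was 0.12 ± 0.132 (SE).

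ND-B16.6 showed a gap of like size. At day 20 the controls stood at 0.39, 0.44 and 0.58 and the Indy206 flies at 0.23 and 0.20. At day 50 they stood at 0.30, 0.47 and 0.60 against 0.19, 0.07 and 0.10. The genotypes did not overlap at days 5, 20 and 50, as held in this direction for 17%, 9.67% and 4.8% of all units. The single-age differences of ND-B16.6 there were -0.21, -0.25 and -0.34. At day 30, with -0.39 ± 0.160 (SE), the groups overlapped, and none of these passed (limma adjusted p at day 30 = 0.65).

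The call of ND-42 over all ages was close to the threshold. Leaving out single arrays kept its difference between -0.25 and -0.20 and its limma adjusted p between 0.0074 and 0.10, and the call was kept for 16 of the 42 arrays. Without day 5 the difference was -0.21 (limma adjusted p = 0.087). Without the arrays that stood apart, which also leaves out day 5, it was -0.22 (limma adjusted p = 0.092). Muscle markers had a median genotype difference of 0.047, and 0 of 18 were called by limma (4 at an unadjusted p under 0.05). Genes of mitochondrial abundance had a median of 0.0072, with 0 of 8 called by limma (1 at an unadjusted p under 0.05). With the muscle covariate the difference of ND-42 was -0.23 (limma adjusted p = 0.044).

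**Figure D4:**
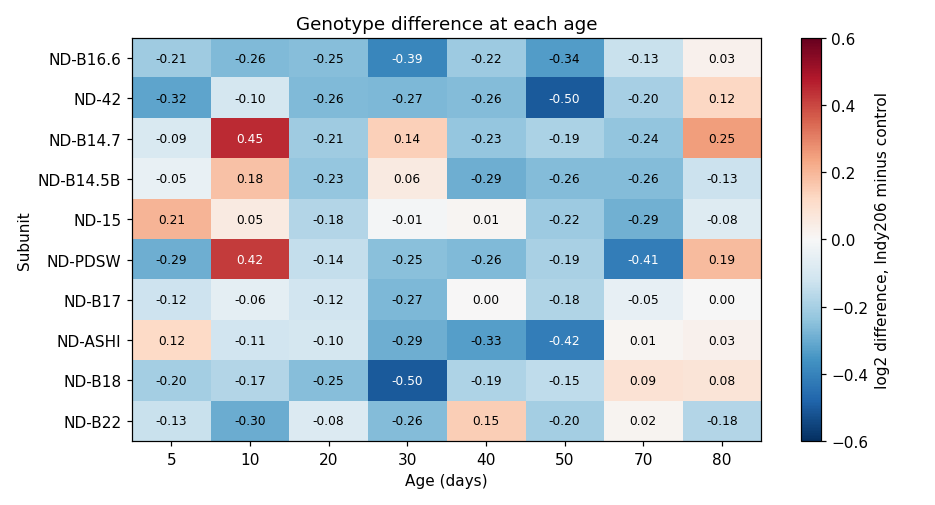
Difference of the log2 ratio, Indy206 minus control, for each subunit (rows) at each age in days (columns), with blue for lower and red for higher in Indy206 flies. All 10 subunits are below 0 at days 20 and 50. At day 10 ND-B14.7 (0.45) and ND-PDSW (0.42) lie furthest above 0, values that fall to 0.17 and 0.018 without 1 control array each. No single value in the plot passed the test.

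Age by age, the number of subunits lower in Indy206 flies was 8 of 10 at day 5 and 6 at day 10. It was 10 at days 20 and 50, 8 at day 30, 7 at days 40 and 70 and, last, 4 at day 80. The median difference over the subunits was -0.13 in the youngest flies and -0.08 at day 10. It was -0.19 in flies of 20 days, -0.26 in those of 30 days, -0.22 in those of 40 days and -0.21 in those of 50 days. In old flies it was -0.17 at 70 days and 0.03 at 80 days. No subunit was called by limma at any single age, and an unadjusted p under 0.05 was reached by 1 subunit at day 10, by 3 each at days 30 and 50, by 2 at day 70 and by 0 at the other ages. That p was reached by 4.55% of all units at day 10, by 6.52% and 4.82% at days 30 and 50 and by 9.28% at day 70. At the ages with no such subunit it was reached by 3.82% (day 5), 3.08% (day 20), 4.71% (day 40) and 5.66% (day 80). Over all units, the share called in either direction was 0% at days 5 and 20, and 0.00524% at day 10. It was 0.0472% in flies of 30 days, 0.0681% in those of 40 days and 0.0157% in those of 50 days, and later 0.136% at day 70 and 0.0315% at day 80.

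The arrays of the genotypes separated for some subunits at some ages. Every Indy206 array lay below every control array for 4 of the 10 subunits at day 5, where this held for 17% of all units. It held for 5 in flies of 20 days, against 9.67% of all units, and for 6 in flies of 50 days, against 4.8%. At day 70 it held for 3 subunits, against 7.43%. It held for 1 subunit each at days 10, 30, 40 and 80, against 2762 of the 19077 units at day 10 and 3.61%, 8.48% and 5.98% of them at the later ages. The reverse, every Indy206 array above every control array, held for ND-B14.7 at day 10, as for 18.1% of all units. It held for ND-B22 at day 40, as for 11.6% of all units.

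Among the other single-age differences, some lay below 0 and some above. At day 30 ND-B18 stood at 0.77, 0.31 and 0.02 in controls and at -0.24, -0.34 and 0.18 in Indy206 flies, a difference of -0.50 ± 0.173 (SE) with 1 Indy206 array between the controls. At day 50 ND-ASHI stood at 0.35, 0.49 and 0.68 in controls and at 0.12, 0.05 and 0.09 in Indy206 flies, a difference of -0.42 ± 0.190 (SE) without overlap. At day 70 ND-PDSW stood at -0.05, -0.10 and -0.26 in controls and at -0.54, -0.48 and -0.64 in Indy206 flies, a difference of -0.41 ± 0.197 (SE), also without overlap. None of the 3 passed (limma adjusted p = 0.54, 1.0 and 0.53).

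In flies of 10 days the largest differences lay above 0, those of ND-B14.7 and ND-PDSW. Smaller ones above 0 were those of ND-B14.5B (0.18) and ND-15 (0.05). ND-B14.7 stood at 0.27 and -0.29 in controls and at 0.51 and 0.37 in Indy206 flies, a difference of 0.45 ± 0.194 (SE). Leaving out replicate 2 of the day 10 controls gave 0.17, and leaving out their replicate 1 gave 0.73. ND-PDSW stood at -0.49 and 0.31 in controls and at 0.46 and 0.20 in Indy206 flies, with overlap, a difference of 0.42 ± 0.241 (SE). Here the value was 0.018 with replicate 1 of the same controls left out and 0.82 with their replicate 2 left out. Neither passed (limma adjusted p = 1.0 for both). ND-B16.6 was lower in Indy206 flies at 7 of 8 ages, as were ND-42 and ND-B17, and the other 7 subunits were lower at 5 or 6.

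The other lists of the respiratory chain had similar medians. The median difference over ages was -0.12 in the matrix arm, with 7 of 8 genes below 0, -0.15 in complexes II to IV and -0.12 in ATP synthase. By limma 0 genes of these 3 lists were called, and 4, 9 and 3 stood at an unadjusted p under 0.05. ND-39 (-0.19 ± 0.057 SE, limma adjusted p = 0.21) and ND-B14.5A (-0.18 ± 0.068 SE, limma adjusted p = 0.53) had the lowest values of the matrix arm. The assembly factors ran from -0.046 to -0.020.

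Within groups, the deviations of single arrays from their group mean were shared by some of the subunits. A set of 5 (ND-B16.6, ND-ASHI, ND-B17, ND-B18 and ND-B22), chosen after the values were seen, had pairwise correlations of deviations from 0.502 to 0.791 over the 42 arrays. A set of 3 (ND-B14.5B, ND-PDSW and ND-B14.7), chosen in the same way, had correlations from 0.339 to 0.700. Between the sets they ran from -0.474 to 0.107, with 11 of 15 below 0. Because the sets were chosen from these values, they carry no test. In groups of 2 arrays the deviations mirror each other, so the 42 arrays are not separate observations here.

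The opposition between the sets came mainly with 1 control array. On control day 30 replicate 1, ND-B16.6 stood at 1.16, ND-ASHI at 1.04, ND-B17 at 0.99, ND-B18 at 0.77 and ND-B22 at 0.33, each the highest of its group. On the same array ND-B14.5B stood at -0.63, ND-PDSW at -0.69 and ND-B14.7 at -0.54, each the lowest of its group. Without that array the correlations were 0.388 to 0.750 within the 5, -0.153 to 0.447 within the 3 and -0.229 to 0.556 between the sets, with 5 of 15 below 0. Without 2 further arrays, control day 10 replicate 1 and Indy206 day 30 replicate 3, they were 0.170 to 0.713, 0.062 to 0.344 and -0.210 to 0.428. Leaving out control day 30 replicate 1 ended no call of an age slope over both genotypes, and without it the early step was called for 3 subunits, ND-B14.7, ND-PDSW (limma adjusted p = 0.025) and ND-B14.5B (limma adjusted p = 0.0092).

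**Figure D5:**
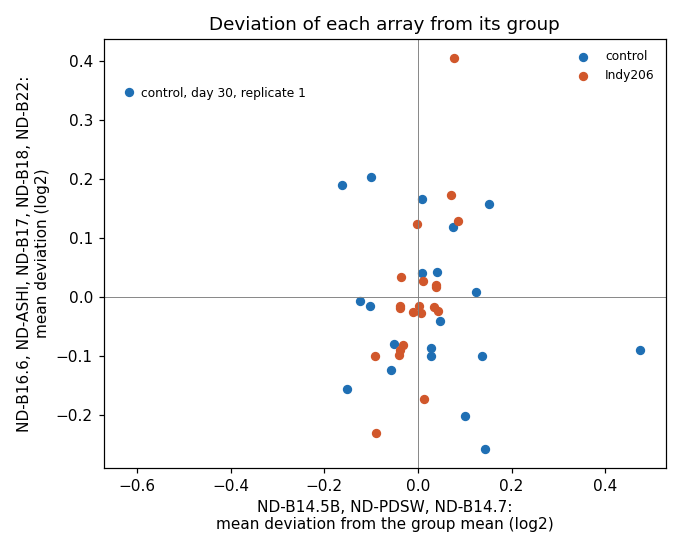
Each point is an array (control blue, Indy206 orange). The horizontal axis gives the mean deviation from the group mean of ND-B14.5B, ND-PDSW and ND-B14.7 and the vertical axis that of ND-B16.6, ND-ASHI, ND-B17, ND-B18 and ND-B22, in log2 units. The control array of day 30 replicate 1 lies alone at -0.617 on the horizontal and 0.347 on the vertical axis.

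Over all 42 arrays, with control day 30 replicate 1 included, other genes of the chain also differed in which set they followed. The deviations of ND-B12, the counterpart of another membrane arm subunit, correlated with the mean of the 3 at 0.873 and with the mean of the 5 at -0.18, those of ND-B14.5A of the matrix arm at -0.13 and 0.691. Values without control day 30 replicate 1 were not computed for these genes, so how far they rest on that array is not known. These are descriptions over 42 arrays, and what the arrays share beyond genotype and age was not tested.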

How the data were processed

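The authors deposited a log ratio for every spot of every array, made with limma, per the submitters' processing notes. The deposited values were read as log2, since neither the log base nor the version of limma is stated there, and the same holds for background correction and for normalization within arrays. The labels list no dye swap, so any dye bias is part of each level and drops out of differences between groups. Signal over background was not analysed here, and the number of arrays limits the precision. Array medians lay between -0.014 and 0.0019, and the values were not normalized again for the main fit. The spread of an array (interquartile range) ran from 0.185 to 0.381, so equal medians did not mean equal spread. Scaling to a common spread and quantile normalization were among the alternatives. The values covered 20000 spots with no missing value.

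Of these spots 10828 had 1 gene in the platform annotation (10824 matched the RefSeq gene table of Release 6 plus ISO1 MT), 227 had several and 8945 had none. Spots of 1 gene were averaged and the others tested unnamed, which gave 19077 units. The functions lmFit and eBayes (limma 3.58.1, R 4.3.3) were run on the 42 arrays with a mean for each of 16 groups, which leaves 26 residual degrees of freedom. Slopes are least-squares slopes of the group means per 10 days. P-values are two-sided, adjusted by Benjamini-Hochberg within each contrast over all units and called under 0.05. An array stood apart where its mean correlation lay more than 3 scaled median absolute deviations below the median. The fit was tested on simulated data with noise drawn independently for each unit and array. Deviations shared between genes, as seen in these arrays, were not part of that test. The plots were made in Python 3.11.15 with matplotlib 3.10.9.

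The subunits and the lists were chosen with earlier results of these data known. Named are all 10 subunits, the measured genes of the other complex I lists, Indy and the 5 genes outside those lists whose course over the groups was most alike. Marker lists for muscle, testis, accessory gland, photoreceptor, neuron, fat body and midgut were measured. Neuron markers had array medians from -0.015 to 0.65, fat body markers from -0.14 to 1.22, midgut enzymes from -1.70 to 0.14 and photoreceptor markers from 0.33 to 1.23. Alternatives covered scaling, spot averaging, units tested, array weights, robust variance, the replicate number as a block, the model for age, tissue covariates, the arrays that stand apart, day 5 and each array left out. Alternatives for the correlations of deviations were chosen after seeing the data. The control array titled replicate 3 of day 70 has another number in its description, and the title was used. No test used samples outside the 16 groups.

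Replicate numbers were set against the deviations of arrays from their group means. Over the 19 pairs of same-numbered arrays at an age the correlations ran from -0.346 to 0.618, with 13 over 0.1. Those of day 50 were 0.364, 0.530 and 0.618. In groups of 2 arrays the deviations mirror each other, so both pairs of day 10 hold the same value (0.104). The 19 pairs are thus not separate observations. Arrays with different numbers were not compared in this way, so whether the numbers pair the samples was not tested. The main fit did not use them.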

Additional observations from a re-analysis of the deposited data

How the results depend on the processing

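Over 1148 comparisons of a result with a processing alternative, 1094 kept direction and side of the threshold, 19 lost the call, 30 gained it and 5 changed sign. Some could not move, since each subunit has 1 spot and testing every spot alone leaves its estimates as they are. The totals are thus no measure of stability. Quantile normalization gave 1 subunit lower at day 50 (ND-42) and 1 with a rising slope (ND-B22, with 12.5% of all units called higher). It gave 2 early falls in controls (0.472% of all units called lower) and 5 over both genotypes (2.84%). Scaling to a common spread gave 2 subunits lower in Indy206 flies (0.257% of all units called lower). It gave 2 early falls in controls (0.398%) and 5 over both genotypes (2.71%). Tests of single-gene spots alone gave 3 early falls, with 6.64% of units called lower (0.676% in controls and 0.333% in Indy206 flies). Array weights gave 1 rising slope over both genotypes (11.4% of all units called higher) and 1 in Indy206 flies (9.07%), both of ND-B22. They gave 2 early falls in controls (0.723% of all units called lower) and 4 over both genotypes (5.86%). They also gave 1 late rise (ND-B22, with 8.65% of all units called higher). Whether replicate numbers pair the samples was not tested. With the replicate block 2 subunits fell early in controls (0.781% of all units called lower) and 3 over both genotypes (4.48%). With it 8 kept a falling slope from day 10 on (7.74%). Without the arrays that stood apart, which leaves out day 5, no subunit (0) was called for genotype and ND-B14.7 stood at 0.0035. Without day 5 the count for genotype was 0 as well. The covariate of testis and accessory gland markers gave 1 rising slope (6.82% of all units called higher) and 1 late rise (5.94%), both of ND-B22. It gave 0 early falls in controls (0.0105% of all units called lower). The muscle covariate gave 0 early falls in controls (0.294% of all units called lower) and 0 over both genotypes (0.671%). With it ND-B22 had a control slope of -0.0017 and an Indy206 early step of -0.047, and ND-PDSW early steps of 0.46 in Indy206 flies and 0.066 over both. The causes were not tested. The share of all units with a falling slope was 5.49% with the muscle covariate, 5.64% with the testis and accessory gland covariate and 7.48% without day 5. It was 24.6% of units with single-gene spots tested alone.

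Leaving out each array in turn gave 4620 comparisons, of which 4542 kept direction and side, 44 lost the call, 26 gained it and 8 changed sign. An estimate cannot change when the array left out belongs to none of the groups it compares, so many estimates were fixed in advance. The counts of subunits lower ran from 0 to 1 for genotype, 1 to 3 for the early step, 0 to 2 for it in controls, 7 to 8 for the late step, 8 to 9 for the slope from day 10 on and 9 to 9 for the slope over all ages, and late rises from 0 to 1. Values that changed sign ran from -0.051 to 0.020 (genotype, ND-B14.7), from -0.21 to 0.0043 (day 10, ND-42), from -0.037 to 0.21 (day 80, ND-42), from -0.41 to 0.047 (Indy206 early step, ND-B17) and from -0.10 to 0.23 (the same, ND-B22).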
